A study of Mus musculus with 6 samples.

Results

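The DNA repair gene families examined here are the Xrcc, Rad, Fanc, Ercc, Brca, Msh, Mlh, Parp and Lig genes, together with Ogg1, Atm, Atr, Prkdc, Mre11a, Nbn, Ung and Apex1. Members were chosen by gene symbol alone, and every deposited region whose named gene, the one with the nearest transcription start site, fitted the rule was taken. The rule covered 74 protein-coding genes of the RefSeq table, of which 50 were named by at least 1 region, and these 50 genes held 112 of the 41527 regions of the series on chromosomes 1 to 19, X and Y. The symbols are broad: the higher-numbered Parp genes, Rad21, Rad21l and Rad54l2 fit the rule without being classical repair genes, and 62 members remain without Parp4 and above and those 3.

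The regions are sites of TERT signal in cultured primary neurons dissected from the cortex and hippocampus of C57BL/6 embryos at E15-18. An antibody against TERT, the catalytic subunit of telomerase, was used for CUT&Tag, in which an antibody-guided transposase cuts and tags the DNA beside the bound protein. BIBR1532, a synthetic compound that inhibits telomerase, was given to 3 samples at 2 µM for 24 h, and 3 other samples were given its vehicle, DMSO (1 label field calls the vehicle samples untreated). The authors pooled each group and deposited 3 region lists: a list with higher signal under BIBR1532, a list with higher signal under vehicle, and a list common to both.

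Which of the condition-specific lists belongs to BIBR1532 was read from the order of the conditions in the deposited names, which is the convention of the bdgdiff step named in the file headers. The direction is therefore likely and not stated outright. Because the samples were pooled, no region has a value per sample, the depth is unknown from the lists, and the difference between conditions has no replicate check. Shares below carry 95% exact binomial (Clopper-Pearson) intervals, which cover counting error only. Each region also carries the authors' own score, which is compared only within its list. The lists held 16153 BIBR1532, 18562 vehicle and 6812 common regions in all. Among 12 neuronal marker genes, 3 had a BIBR1532 region with its centre within 1 kb of a start site, 4 a vehicle region and 3 (Map2, Snap25 and Syt1) a common region. Backgrounds over all protein-coding genes were 11.1% for BIBR1532, 11.6% for vehicle and 19.2% for common regions. None of the 24 astrocyte, microglia, oligodendrocyte and endothelial markers (6 each) had a common region there. A BIBR1532 region was there at 1 astrocyte marker, and vehicle regions at 1 astrocyte, 1 oligodendrocyte and 1 endothelial marker, while microglia markers had neither. CUT&Tag of TERT does not measure the expression of these genes, so the label of the cells was not checked further.

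DNA repair genes are grouped by the damage they mend. Base excision and nucleotide excision repair replace altered bases on 1 strand, mismatch repair corrects copying errors, and end joining and homologous recombination rejoin broken strands, while the Fanconi anaemia genes act on links between the strands. Neurons no longer divide, and repair in them is known to depend mainly on excision repair and end joining, since recombination uses a sister copy made in S phase. TERT extends telomeres with the repeat TTAGGG, and the same break-sensing proteins also act at telomeres.

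The promoters of 5 members are shown because of the patterns at their start sites, described below. A common region was bordered by a BIBR1532 region at Ogg1, Parp6 and Rad52, and by a vehicle region at Parp2. At Mre11a it was overlapped by a BIBR1532 region named for Ankrd49, with a vehicle region farther downstream. At Ogg1 the bordering regions lie upstream of the printed bases, and the capitals belong to a second common region. Each printed promoter runs from 250 bases before to 50 bases after the RefSeq start site (GRCm38.p6, the mm10 build). It reads 5′ to 3′ in the direction of the gene, and capitals mark the bases inside a common region. Ogg1 covers chr6:113326726-113327025, Parp6 chr9:59617034-59617333, Rad52 chr6:119902448-119902747, Parp2 chr14:50807666-50807965 and Mre11a chr9:14784404-14784703, all on the plus strand.
Ogg1: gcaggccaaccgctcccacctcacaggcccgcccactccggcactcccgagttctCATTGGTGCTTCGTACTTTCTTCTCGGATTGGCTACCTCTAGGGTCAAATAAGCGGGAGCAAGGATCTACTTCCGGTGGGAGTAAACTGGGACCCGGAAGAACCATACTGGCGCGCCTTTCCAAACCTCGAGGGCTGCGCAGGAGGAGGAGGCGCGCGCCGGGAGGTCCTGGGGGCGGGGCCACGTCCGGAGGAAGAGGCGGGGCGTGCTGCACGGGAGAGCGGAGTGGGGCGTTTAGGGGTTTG
Parp6: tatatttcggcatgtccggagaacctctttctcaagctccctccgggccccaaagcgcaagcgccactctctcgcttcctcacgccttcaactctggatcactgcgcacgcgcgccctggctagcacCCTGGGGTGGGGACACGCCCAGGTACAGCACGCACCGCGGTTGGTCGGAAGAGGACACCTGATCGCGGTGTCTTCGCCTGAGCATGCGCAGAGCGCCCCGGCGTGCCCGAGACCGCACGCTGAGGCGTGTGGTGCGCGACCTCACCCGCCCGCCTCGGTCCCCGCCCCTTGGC
Rad52: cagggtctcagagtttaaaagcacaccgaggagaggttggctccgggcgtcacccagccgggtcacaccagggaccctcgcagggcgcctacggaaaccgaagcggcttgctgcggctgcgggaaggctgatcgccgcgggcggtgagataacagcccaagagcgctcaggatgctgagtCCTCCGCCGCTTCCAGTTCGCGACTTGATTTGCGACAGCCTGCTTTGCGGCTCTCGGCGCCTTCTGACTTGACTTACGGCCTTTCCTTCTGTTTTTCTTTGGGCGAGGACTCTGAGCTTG
Parp2: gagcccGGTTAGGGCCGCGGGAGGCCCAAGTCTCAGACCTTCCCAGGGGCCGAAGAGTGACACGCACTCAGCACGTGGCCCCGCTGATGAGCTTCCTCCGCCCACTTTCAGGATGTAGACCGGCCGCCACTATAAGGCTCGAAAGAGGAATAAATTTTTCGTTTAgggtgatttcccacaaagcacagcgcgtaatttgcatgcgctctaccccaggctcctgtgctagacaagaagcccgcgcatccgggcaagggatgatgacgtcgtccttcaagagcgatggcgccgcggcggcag
Mre11a: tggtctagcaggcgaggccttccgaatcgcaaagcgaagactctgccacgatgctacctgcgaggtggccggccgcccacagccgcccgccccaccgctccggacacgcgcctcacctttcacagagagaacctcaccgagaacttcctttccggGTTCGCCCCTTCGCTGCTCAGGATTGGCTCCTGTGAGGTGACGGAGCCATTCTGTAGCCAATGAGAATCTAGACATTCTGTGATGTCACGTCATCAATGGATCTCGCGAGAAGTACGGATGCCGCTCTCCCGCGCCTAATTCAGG
Common regions held 245 of the 300 bases at Ogg1, 173 at Parp6, 120 at Rad52, 159 at Parp2 and 145 at Mre11a. The bases in lower case at Parp6 and Rad52 were in a BIBR1532 region for 127 and 180 bases, so the lists divided these windows between them. At Parp2 the 135 last bases were in a vehicle region. At Mre11a 246 bases were in a BIBR1532 region, which also took in part of the capitals.

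TERT signal shared by both conditions sat at the start sites of repair genes. Of the 26 common regions named for members, 25 (96.2%, 80.4 to 99.9%) had their centre within 1 kb of a start site, against 72.7% of all common regions, and the exception lay 18364 bp upstream of Parp16. Of the members' BIBR1532 regions 26.7% were so placed (background 17.6%), and of their vehicle regions 31.7% (background 15.9%). By gene, 23 of 74 members (31.1%, 20.8 to 42.9%) had a common region within 1 kb, against 19.2% of all protein-coding genes. With the authors' narrower promoter-TSS class the count was 15 (20.3%, 11.8 to 31.2%), against a background of 14.2%, which lies inside the interval. In that class the BIBR1532 list named 8 members (10.8%, background 6.89%) and the vehicle list 7 (9.46%, background 7.37%), and 16 of the 26 common regions carried it (61.5%, background 51.9%), as did 8 of 45 BIBR1532 regions (17.8%, background 10.6%) and 7 of 41 vehicle regions (17.1%, background 9.77%). Condition-specific regions within 1 kb of start sites named 11 members in the BIBR1532 list (14.9%, background 11.1%) and 12 in the vehicle list (16.2%, background 11.6%), and both intervals (7.66 to 25.0% and 8.67 to 26.6%) hold the background. Any list had a region there for 36 members (48.6%, background 33.4%). At any distance, the BIBR1532 list named 29 members (39.2%, background 34.5%), the vehicle list 28 (37.8%, background 37.5%) and the common list 23 (31.1%, background 23.9%), and the 50 members named in all were 67.6% of 74 (background 59.1%). A further 103 DNA repair genes outside these families gave a like picture, with a common region within 1 kb at 33 of them (32.0%).

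Regions that differed between conditions were divided about evenly at repair genes. The members had 45 BIBR1532 and 41 vehicle regions, so 52.3% (41.3 to 63.2%) of the condition-specific ones were in the BIBR1532 list, against 46.5% of all 34715. Within 1 kb of start sites it was 12 of 25 (48%, background 49%) and farther out 33 of 61 (54.1%, background 46%), with the background inside each interval (27.8 to 68.7% and 40.8 to 66.9%). More BIBR1532 than vehicle regions were named for 20 members and fewer for 21, while 4 had equal numbers. Both condition-specific lists named 12 members (16.2%, background 20%), and 6 members were in all 3 lists, among them Parp11, Parp16, Rad23b, Rad52 and Xrcc4. The count in all 3 lists and the counts of 20, 21 and 4 members have no share over all genes beside them, since none was computed.

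**Figure D1:**
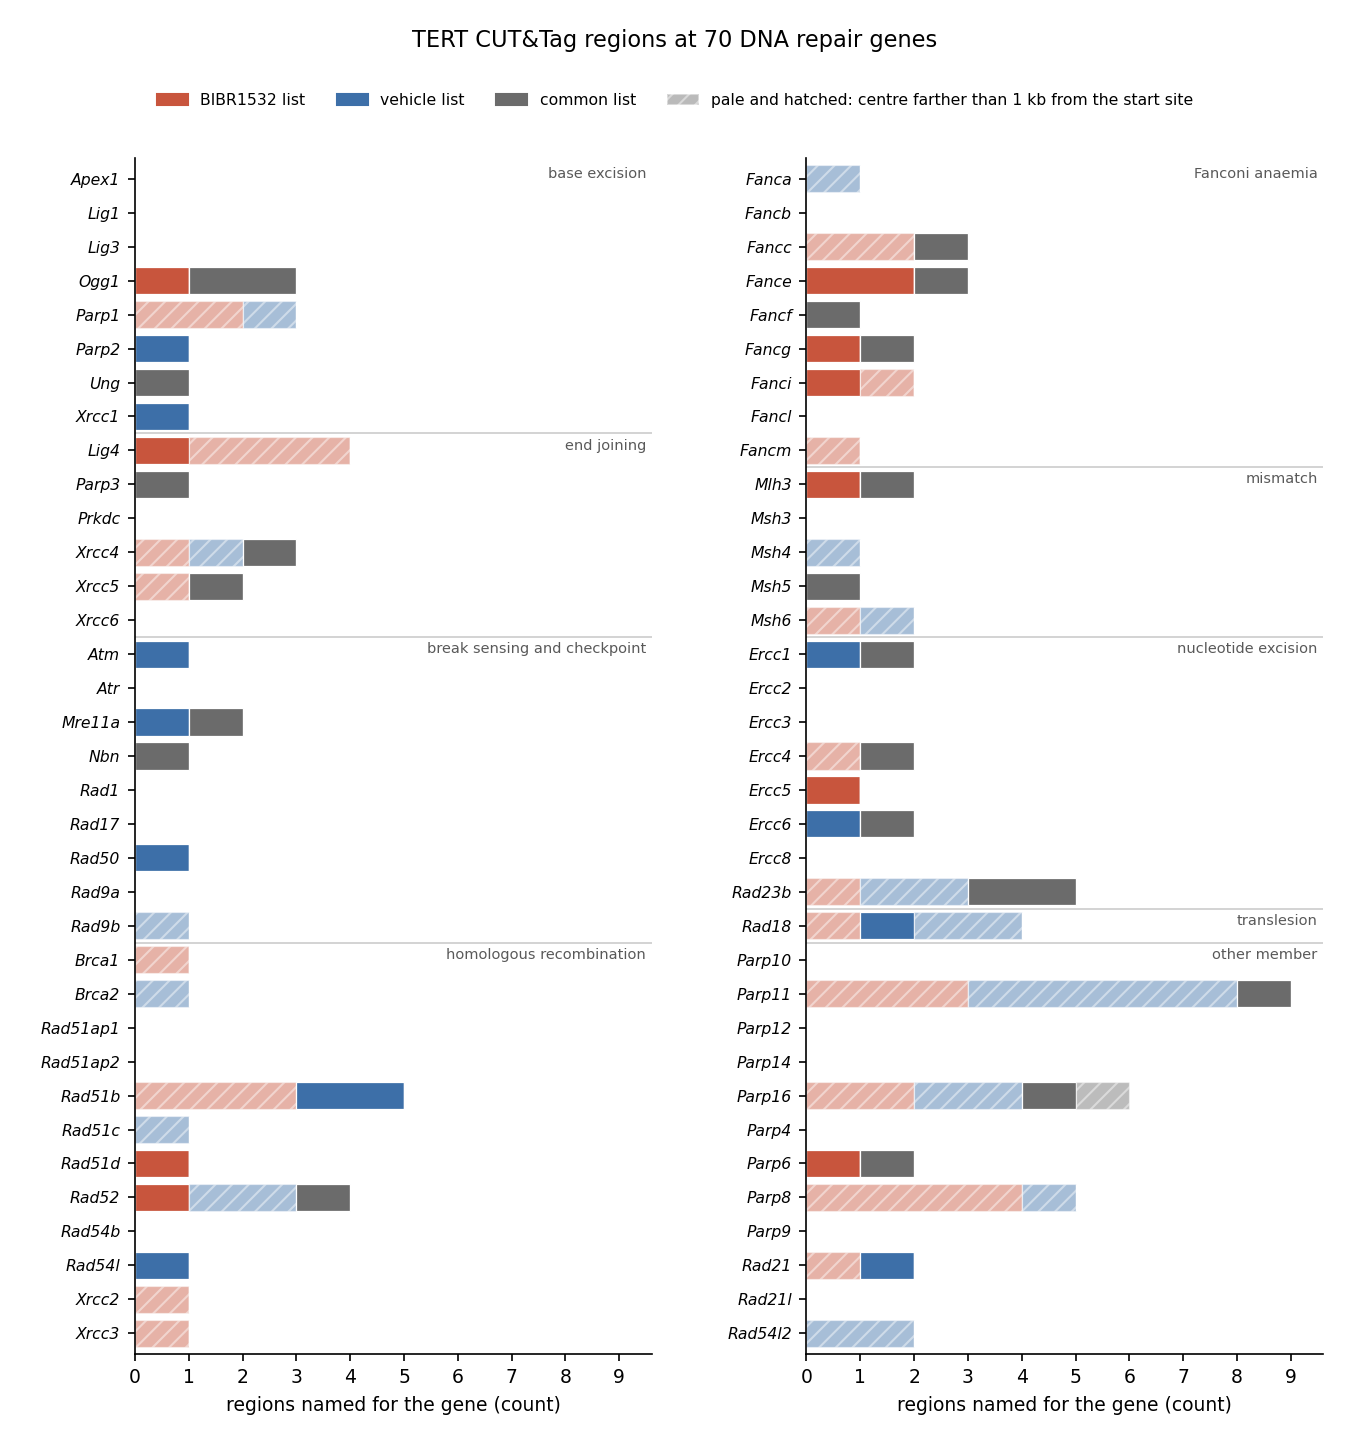
Number of TERT CUT&Tag regions (x axis, count) named for each of 70 members (y axis), grouped by repair pathway, with BIBR1532, vehicle and common regions stacked. Full colour marks regions centred no more than 1 kb from a start site and pale hatching those farther away; Parp11 has the longest bar (9 regions) and 24 members have none.

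In base excision and single-strand break repair, 5 of 8 members were named by a region (background 59.1%). Ogg1, the glycosylase that removes 8-oxoguanine, had 1 BIBR1532 region (chr6:113326283-113326472, centre 599 bp upstream, score 1.43) and 2 common regions (chr6:113326473-113326595 and chr6:113326781-113327197). The first common region began at the base after the BIBR1532 region ended, and the second spanned the start site, as the capitals in its promoter show. Ung, which removes uracil from DNA, had a common region alone (chr5:114130536-114131132). Its centre is 322 bp upstream of the start used in the deposited list, and from the RefSeq promoter table's start the region runs from 101 to 697 bp downstream. Parp2 and Xrcc1 had vehicle regions and nothing else by name. Parp2, which senses strand breaks and makes poly(ADP-ribose), had 1 across its start site (chr14:50807831-50808264, score 9.72, the highest vehicle score among the members), and Xrcc1, the scaffold of single-strand break repair, had 1 in its first exon (chr7:24551989-24552380, 5′ UTR, score 9.59). Parp1, the main break-sensing member of its family, had no region at its start site, with BIBR1532 regions 32881 and 2740 bp upstream and a vehicle region 19434 bp upstream. Apex1, the abasic-site endonuclease, and the ligases Lig1 and Lig3 were named by none.

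In end joining, 4 of 6 members were named (background 59.1%), and the regions were 6 BIBR1532, 1 vehicle and 3 common (46.5% of all condition-specific regions were in the BIBR1532 list). Lig4, the ligase that seals the joined ends, accounted for 4 of the 6 BIBR1532 regions and had none in the other lists, the largest difference between the lists of any member. One lay at its start site (chr8:9976348-9976495, centre 98 bp upstream, score 1.29), and the other 3 lay outside genes 34362, 46673 and 60015 bp downstream of it, at scores of 6.34, 11.6 and 11.6. Common regions covered the start sites of Xrcc5, the larger subunit of the Ku end-binding complex (chr1:72306809-72307667, 859 bp wide), and of Parp3 (chr9:106476605-106477489, 885 bp wide, the widest common region of the members). Xrcc4, the partner that holds Lig4, had a common region 231 bp inside the gene (chr13:90089257-90089497), annotated to the promoter of Tmem167, whose start site faces its own at 59 bp. Xrcc4 also had a BIBR1532 region at its exon 2 and a vehicle region in intron 7. Prkdc, the kinase recruited by Ku, and Xrcc6, the smaller Ku subunit, were named by none.

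Break-sensing and checkpoint genes had 4 vehicle regions and no BIBR1532 region by name, over 9 members. Over all genes the BIBR1532 list held 46.5% of condition-specific regions, and the split in so few regions was not tested. Under neighbours' names, BIBR1532 regions lay at the start sites of Atm and Mre11a and a vehicle region at that of Atr. The MRN complex that binds broken ends consists of Mre11a, Rad50 and Nbn. Each had a region within 1 kb of its start site, in differing lists, and 33.4% of all genes had one in any list. Nbn had a common region alone (chr4:15957934-15958191, centre 95 bp downstream). Rad50 had a vehicle region alone (chr11:53707156-53707316, centre 83 bp downstream) at 5.19, the most frequent score of the vehicle list. Mre11a, the nuclease of the complex, had a common region (chr9:14784559-14784846) and, past it, a vehicle region (chr9:14784976-14785112, score 5.43). Both were annotated to the promoter of Ankrd49. Atm, the kinase that MRN activates, had a vehicle region 576 bp downstream (chr9:53535999-53536191, score 9.6), and Rad9b, a subunit of a checkpoint clamp, had 1 in its intron 10 at the most frequent score. Atr, the kinase that answers exposed single strands, and the clamp and clamp-loader genes Rad1, Rad9a and Rad17 were named by none.

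Homologous recombination was the largest group, with 13 members, and had 1 common region by name, at Rad52 (19.2% of all genes had one within 1 kb). Common regions named for neighbours also lay at the start sites of Brca1, Rad51ap1, Rad51b and Xrcc3. The group's condition-specific regions were 8 BIBR1532 and 8 vehicle (46.5% of all condition-specific regions were in the BIBR1532 list). Rad52, which anneals complementary strands, had a BIBR1532 region just upstream of its start site (chr6:119902383-119902627, score 2.68) that ended at the base before its common region began (chr6:119902628-119902963). Its 2 vehicle regions lay 21551 and 45841 bp away, inside Wnk1. Rad51d, which assists strand exchange, had a BIBR1532 region of 773 bp in its first intron (chr11:82889754-82890526, score 8.0). Rad51b, a gene of the same family, had vehicle regions on both sides of its start site (chr12:79296992-79297212 and chr12:79297509-79297767, scores 1.25 and 1.49), and 3 BIBR1532 regions deep in intron 7, all at 6.34, the most frequent score of that list. Rad54l, a translocase that acts during strand exchange, had a vehicle region 112 bp downstream (chr4:116123493-116123661, score 5.19). The others were named only by regions farther out. Brca1, which promotes end resection, had a BIBR1532 region in intron 9 (chr11:101526654-101526865, score 6.55), and Brca2, a mediator of strand exchange, had a vehicle region in intron 2. Xrcc2 and Xrcc3, related recombination genes, had 1 BIBR1532 region each, and Rad51c had 1 vehicle region in intron 3. Rad51ap1, Rad51ap2 and Rad54b were named by none.

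The Fanconi anaemia genes had 8 BIBR1532 regions and 1 vehicle region over 9 members, with 4 common regions. Within 1 kb of the start sites the split was 4 regions of 3 members in the BIBR1532 list and 0 in the vehicle list. Over all genes the BIBR1532 list held 46.5% of condition-specific regions and 49% of those within 1 kb, and the split in so few regions was not tested. Fance, which links the core complex to its substrate, had a common region across the start site (chr17:28313290-28313774) and 2 BIBR1532 regions after it (chr17:28313775-28313940 and chr17:28314008-28314167, scores 1.23 and 2.29), the first directly adjoining. Fancg, a core-complex subunit, had a common region upstream (chr4:43010319-43010555) and a BIBR1532 region of 540 bp in its first intron (chr4:43009585-43010124, score 1.48). Fanci, part of the complex that the core ubiquitinates, had the highest score of these (7.82) in a BIBR1532 region 270 bp upstream (chr7:79391837-79392299), with no common region. The core subunits Fancc and Fancf had common regions 421 and 123 bp downstream of their start sites. Fancm, the translocase that anchors the core, had a BIBR1532 region in exon 10, and the vehicle region was in intron 21 of Fanca, a core subunit. Fancb and Fancl, the subunit with ubiquitin-ligase activity, were named by none.

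In mismatch repair, 4 of 7 members had a common region within 1 kb (background 19.2%), and the regions of the group were 5 BIBR1532, 5 vehicle and 4 common. Mlh3, known from meiotic recombination, had a BIBR1532 region upstream (chr12:85270851-85271323, score 2.17) and a common region downstream of the start site (chr12:85270358-85270532). Msh5, a meiotic gene, had a common region alone, 175 bp upstream (chr17:35046808-35047033). Msh6, which takes part in recognising single mispairs, had a BIBR1532 region 56917 bp and a vehicle region 74390 bp upstream. Msh4, also a meiotic gene, had a vehicle region in intron 2, and Msh3, which takes part in recognising loops, was named by none.

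Nucleotide excision repair had regions under the gene's own name within 1 kb of the start sites of 6 of 9 members (background 33.4%). Ercc1, a subunit of the nuclease that cuts 5′ of the lesion, had a common region (chr7:19345108-19345326) with a vehicle region at the next base (chr7:19345327-19345469, score 1.85), both in intron 1. Its catalytic partner Ercc4 had a common region in the 5′ UTR (chr16:13109787-13110038), and Ercc5, the nuclease that cuts on the 3′ side, had a BIBR1532 region upstream (chr1:44147430-44147790, score 5.93) and no common region. Ercc6, which senses stalled RNA polymerase, had a common region across its start site (chr14:32513236-32513776) and a vehicle region in intron 1 (chr14:32513981-32514133, score 8.07). Rad23b, a damage-recognition partner, had 2 common regions, on either side of its start site (chr4:55349407-55350012 and chr4:55350140-55350358). Ercc2 and Ercc3, the helicases of the TFIIH complex, and Ercc8, which acts with Ercc6, were named by none.

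Of the remaining members, Rad18, the ubiquitin ligase that opens translesion synthesis, had a vehicle region 209 bp upstream (chr6:112696789-112696970, score 7.35), and its other 3 regions lay inside the neighbouring Srgap3. Parp6, a mono-ADP-ribosyltransferase, had a BIBR1532 region (chr9:59616929-59617160, score 2.19) adjoining the common region over its start site (chr9:59617161-59617498). Parp11 and Parp16, of the same enzyme class, had the most regions, 9 and 6, and Parp8, another member of the family, had 5. Of the 9 at Parp11, only the common one (chr6:127453763-127453919) lay within 1 kb of a start site, and a BIBR1532 region at 1018 bp fell just outside. Parp8 had 4 BIBR1532 and 1 vehicle region, among them the highest BIBR1532 score of the members (14.1, chr13:117036128-117036837, 10951 bp upstream). Rad21, a subunit of cohesin, had a vehicle region in intron 1 (chr15:51990730-51990883, score 7.35) and a BIBR1532 region in its 3′ UTR. Rad54l2, a helicase-like gene, had 2 vehicle regions in its introns at the most frequent score, and Parp4, Parp9, Parp10, Parp12, Parp14 and Rad21l were named by none.

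**Figure D2:**
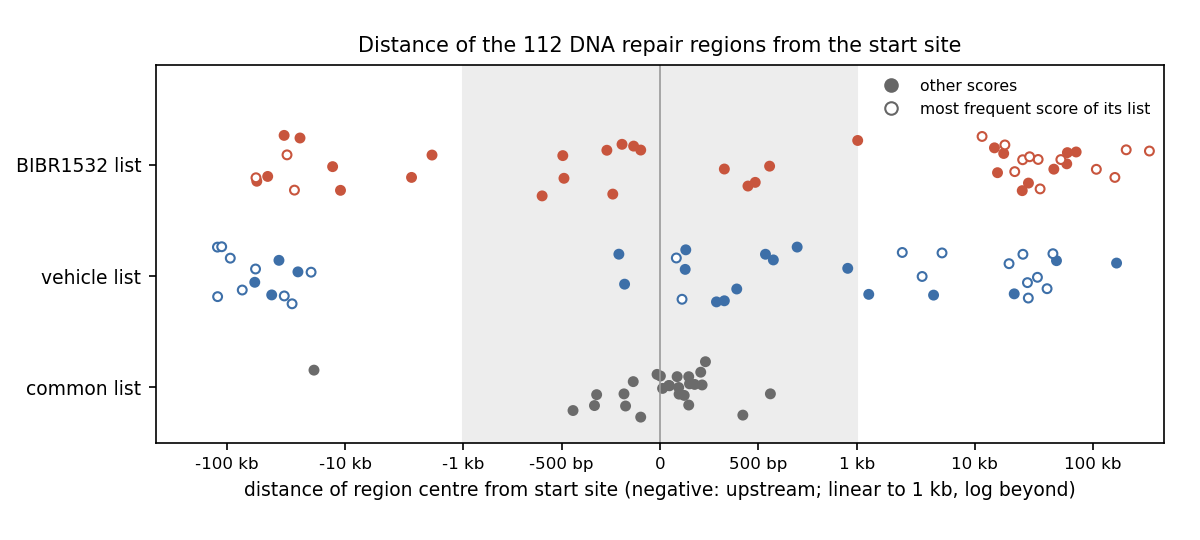
Distance of each of the 112 region centres from the annotated start site of its member gene (x axis, bp or kb, linear to 1 kb and logarithmic beyond), by list; vertical position within a list is only spread for legibility. The shaded 1 kb window holds 12 of 45 BIBR1532, 13 of 41 vehicle and 25 of 26 common regions, and the open points, at the score most frequent in their list, lie mostly outside it.

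Where a repair gene carried a condition-specific region near its start site, shared signal was often beside it. Of the 25 condition-specific regions within 1 kb of a member's start site, 7 (28.0%, 12.1 to 49.4%) touched a common region with no base between. Of all such regions 12.9% touched or overlapped one, which lies just inside the interval. A common region lay within 1 kb of 15 of the 25 (60.0%, 38.7 to 78.9%), against 36.1% of all such regions and 52.4% of those of the other DNA repair genes. The 7 adjoining regions were the BIBR1532 ones at Ogg1, Parp6, Rad52 and Fance and the vehicle ones at Ercc1, Parp2 and Rad51b. In that order they scored 1.43, 2.19, 2.68 and 1.23, and 1.85, 9.72 and 1.25. The median of all regions within 1 kb was 3.91 in the BIBR1532 list and 5.19 in the vehicle list, so only Parp2 stood above it. The deposited names carry the tag c1.0, read here as the minimum score. Apart from Parp2, the adjoining regions thus had low scores for a difference between conditions. By gene, 7 of the 11 members with a BIBR1532 region there also had a common region there under the same gene's name (63.6%, 30.8 to 89.1%, background 34.5%), among them Ogg1, Rad52, Fance, Fancg, Mlh3 and Parp6. Those 7 were 9.46% of the 74 members (background 3.83%). Of the 12 members with a vehicle region there, 3 also had a common one under the same gene's name (25.0%, 5.49 to 57.2%, background 34.2%): Mre11a, Ercc1 and Ercc6, or 4.05% of the 74 (background 3.97%). By position, whichever gene a region was named for, a common region was also at 10 of 15 members with a BIBR1532 region and at 6 of 12 with a vehicle region. The 10 include Parp11, whose BIBR1532 and common regions lie at different start sites, 5615 bp apart. No share over all genes was computed for these 2 counts by position, so they have no background. The difference between the conditions was not tested, and the intervals of the shares by name overlap.

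The side of the start site was read from the deposited distances. Of the 12 BIBR1532 regions within 1 kb, 8 had their centre upstream (66.7%, 34.9 to 90.1%, background 44.4%), and of the 13 vehicle regions 2 did (15.4%, 1.92 to 45.4%, background 43.8%). Each interval holds its background, the intervals overlap, and no test was made. The 103 other DNA repair genes had the opposite order, with 6 of 19 BIBR1532 regions (31.6%) and 13 of 23 vehicle regions (56.5%) upstream. The members' 2 upstream vehicle regions were those of Rad18 and Rad51b. No member had a BIBR1532 and a vehicle region within 1 kb under its own name (0 of 74, upper limit 4.86%, background 1.29%). The members' common regions had their centre upstream in 8 of 25 cases (32.0%, background 47.7%).

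The regions far from start sites had other properties. Of 61 condition-specific regions beyond 1 kb, 34 (55.7%) stood at the score most frequent in their list, as did 55.7% of all such regions. Within 1 kb it was 2 of 25 (8%, background 13.3%), at Rad50 and Rad54l. By list, this score was held by 15 of 45 BIBR1532 regions of members (33.3%, background 46.8%) and 21 of 41 vehicle regions (51.2%, background 50.2%). Of the 86 condition-specific regions, 25 lay within 1 kb of a start site (29.1%, background 16.7%) and were not sorted by gene body. Farther out, 30 lay inside the member they were named for (34.9% of the 86, background 31.6%). Another 23 lay outside any gene (26.7%, background 37.2%) and 8 inside another gene (9.30%, background 13.9%). Among those 8 were the regions named for Rad18 inside Srgap3 (3), Rad52 inside Wnk1 (2), Xrcc3 inside Klc1 and Parp16 inside Igdcc3. The median member was 33.5 kb long, against 17.2 kb for all protein-coding genes, and the part of gene length in these counts was not tested.

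A repair gene's start site could carry TERT signal that was deposited under a neighbour's name. Within 1 kb of the start sites of 14 members lay 16 further regions named for another gene, of which 4 were BIBR1532, 1 vehicle and 11 common. Common regions of this kind were, among others, at Atm (named for Npat), Brca1 (Nbr1), Ercc8 (Ndufaf2), Lig1 (Zswim9), Parp2 (Rpph1), Rad51ap1 (D6Wsu163e), Rad51b (Zfyve26), Xrcc3 (Zfyve21) and Xrcc6 (Desi1). The one at Parp2 (chr14:50807672-50807830) ended at the base before its vehicle region. BIBR1532 regions were at Atm (chr9:53537486-53537612, score 4.73), Fancb (chrX:164980396-164980545, score 7.77), Lig4 (chr8:9977167-9977329, score 1.45) and Mre11a (chr9:14784318-14784649, score 1.87). The vehicle region was at Atr (chr9:95857175-95857533, score 7.80). Counted instead by any overlap with the 1 kb either side of a known start site, whichever gene a region was named for, 33 members met a common region, 15 a BIBR1532 region and 12 a vehicle region. This measure uses the RefSeq start sites where the table has them: it leaves out the vehicle region of Xrcc1, which lies near another start of the gene, and takes in the BIBR1532 region of Parp11 centred at 1018 bp. By it Atm and Mre11a, both of the break-sensing group, met regions of all 3 lists. Members with neither a named region nor one of these numbered 17. For the 14 and the 17 members, and for those that met all 3 lists, no share over all genes was computed, so they have no background. A start site was known for 67 of the 74 members, and the rest, all without a named region, could not be checked by position. For 10 of the 67 it came from the deposited distances of regions already named for the member. The shares set beside all genes, below, cover only the 57 members with a RefSeq promoter sequence.

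**Figure D3:**
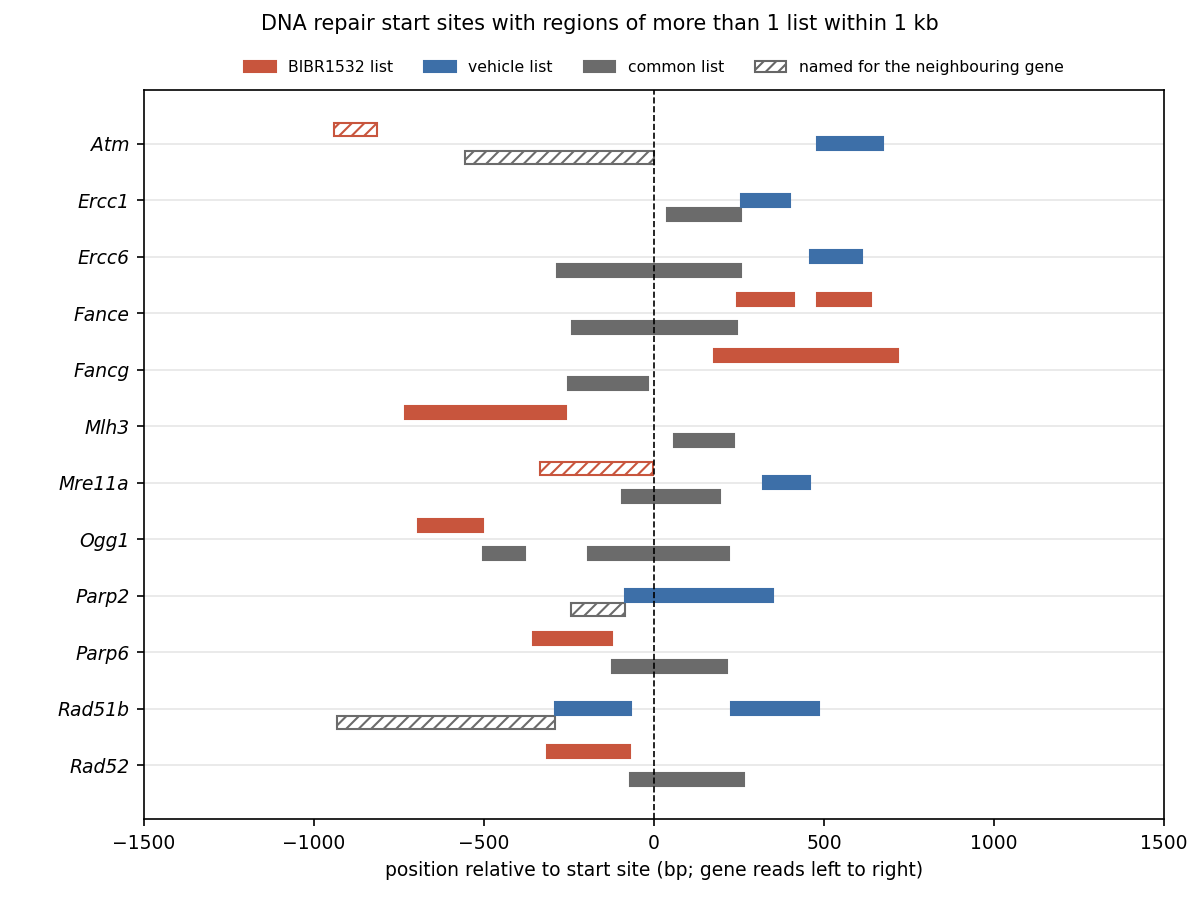
Position of the regions within about 1 kb of the start site of 12 members that met more than 1 list there (x axis, bp from the start site, with the gene reading to the right; each row is a gene). Filled bars are regions named for the member and hatched bars those named for its neighbour, and in 7 rows (Ercc1, Fance, Ogg1, Parp2, Parp6, Rad51b and Rad52) a BIBR1532 or vehicle bar adjoins a common bar.

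Shared promoters were frequent among repair genes. Of the 57 members with a RefSeq promoter sequence, 20 (35.1%, 22.9 to 48.9%) had a protein-coding neighbour that starts on the opposite strand within 1 kb upstream, against 8.48% of 17492 protein-coding genes. Counting regions by position, whichever gene they were named for, a common region overlapped the 1 kb either side of the start site at 30 of the 57 (52.6%, 39.0 to 66.0%, background 23.2%). BIBR1532 regions did so at 13 (22.8%, 12.7 to 35.8%, background 12.9%) and vehicle regions at 9 (15.8%, 7.48 to 27.9%, background 13.4%). Members with such a neighbour met a common region at 11 of 20 start sites (55.0%, against 56.6% of all genes with one), and members without at 19 of 37 (51.4%, 34.4 to 68.1%, against 20.1%). By name alone, only 3 of the 20 members with a neighbour had a common region within 1 kb (15%, against 31.8% of all genes with one), and 17 of the 37 without did (45.9%, against 18.8%).

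The promoters of the members were rich in CpG. The CpG ratio, observed over expected from the base composition of the 300-base promoter, had a median of 0.90 in the 57 members and 0.61 in all genes, and 47 members (82.5%) reached 0.6, against 50.9% of all genes. Among promoters at or above 0.6, a common region named for the gene lay within 1 kb at 16 of 47 members (34%), and the background was also 34%. Counted by position the share was 26 of 47 (55.3%, 40.1 to 69.8%), against a background of 39.8%. In the same promoters the share by position was 12 of 47 for BIBR1532 regions (25.5%, background 20.6%) and 7 of 47 for vehicle regions (14.9%, background 21.3%), and by name it was 9 (19.1%, background 17.4%) and 6 (12.8%, background 18.3%). Among promoters under 0.6 a common region was at 4 of 10 members both by name (40%, 12.2 to 73.8%, background 5.29%) and by position (background 6.05%). Among the members, the median ratio was 0.88 in the 20 with a common region named for them within 1 kb and 0.90 in the 37 without, and 80% and 83.8% reached 0.6. The part of CpG content in these shares was not tested.

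**Figure D4:**
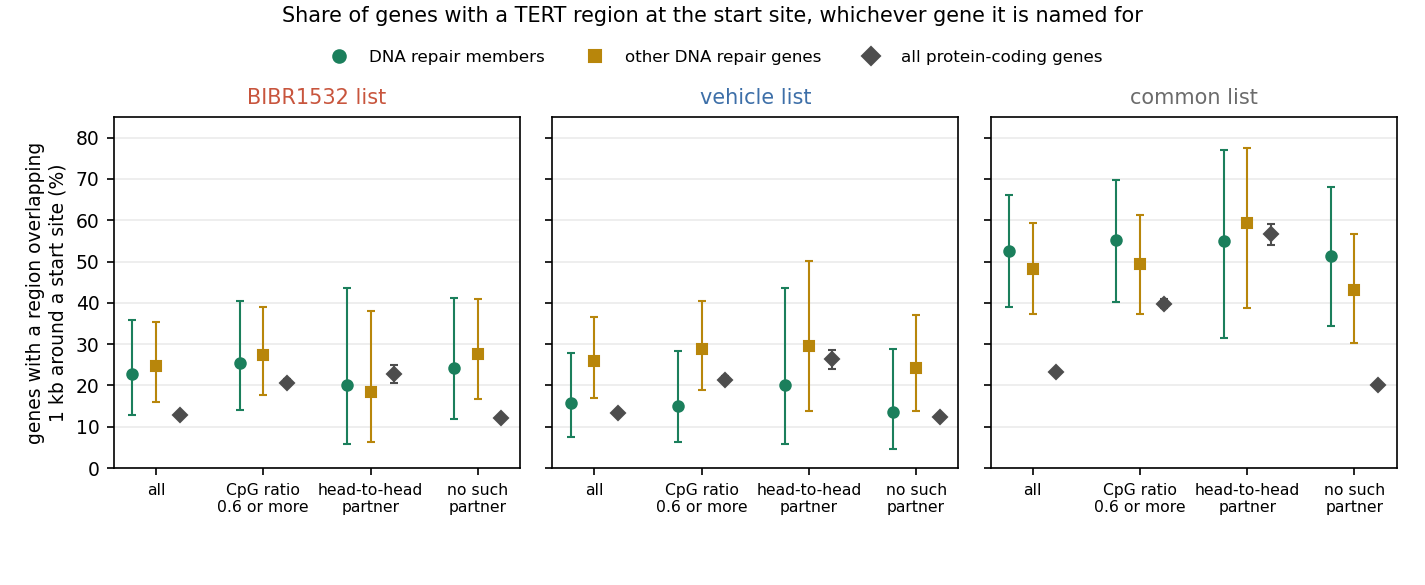
Share of genes (y axis, percent, with 95% exact binomial intervals) with a BIBR1532, vehicle or common region overlapping the 1 kb either side of a start site, for the members, the other DNA repair genes and all protein-coding genes, over all promoters, CpG-rich ones, and those with and without a head-to-head neighbour. The members' common share (52.6% over all) stands above that of all genes (23.2%) and close to it (55.0% and 56.6%) where a head-to-head neighbour exists.

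The telomeric repeat unit TTAGGG, which TERT copies at chromosome ends, occurred on either strand in 5 of the 57 member promoters (8.77%, 2.91 to 19.3%), against 12% of all promoters of the same length. The 5 were Ogg1, Parp2, Parp11, Parp12 and Xrcc6. The match at Ogg1 stood in the capitals printed above, inside a common region, and of the 2 matches at Parp2 1 stood in the capitals and 1 crossed their edge. The E-box CACGTG occurred in 9 (15.8%, background 8.91%) and the GC box GGGCGG in 37 (64.9%, background 49.2%).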

How the data were processed

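TERT CUT&Tag was measured in 3 BIBR1532 and 3 vehicle samples, which the authors pooled before comparing them. Tools in the submitters' processing notes are MACS2 2.1.2, Picard, Bowtie2 and CASAVA 1.8, and the build there is mm10, with no roles given. Per the file headers, the lists come from a bdgdiff step and passed through annotatePeaks.pl with mm10, which adds an annotation class and a nearest-start-site gene. The authors deposited a score with every region, which MACS2 computes as a log-scaled likelihood ratio (background on the program, since the files do not define it). The scaling of the pools and the depth per sample are unknown here.

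The BIBR1532 and vehicle lists were decoded from a 7-bit text encoding. Per member, regions of chromosomes 1 to 19, X and Y were counted by symbol, and start sites, gene spans and promoters came from RefSeq tables of GRCm38.p6. Of 74 members, 57 had a promoter sequence and 67 a start site, of which 10 start sites were taken from the deposited distances. Distances are the deposited ones; of 42 regions near start sites in both sources, 38 were equal within 1 bp at one of the gene's starts, and the exceptions were at Lig4, Msh5, Ung and Xrcc1. The members, role groups and lists were chosen with earlier results of these data known. Named are all members with a region near a start site, those with the most or the most unequal regions, and those with none; a few of these members are left unnamed, though the counts include them. No test was made, since the pools give no replicates. Most counts stand beside the same counts over all genes or regions, with exact (Clopper-Pearson) 95% intervals. The counting was tested on simulated data. The alternatives were minimum scores (2 or 3), a minimum width (500 bp), other promoter windows, other memberships, merging, and leaving out repeated scores. The software was matplotlib 3.10.9, scipy 1.17.1, numpy 2.4.6 and pandas 2.3.3 under Python 3.11.15.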

Additional observations from a re-analysis of the deposited data

How the results depend on the processing

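Of 31 alternative settings over the 4 main shares, 23 moved a share by less than its counting interval. For the common promoter share and the BIBR1532 share, the settings include the 103 other DNA repair genes in place of the members. With regions of at least 500 bp only, members with a common promoter region were 8.11% (20.3% as reported, 3.01% of all genes under the same setting), the BIBR1532 share of condition-specific regions was 63.6% (52.3% as reported, 47.6% of all), members named by any region were 21.6% (67.6% as reported, 18.2% of all genes), and the promoter share of common regions was 100% of 6 (61.5%), since few regions are that wide. Without the most frequent score of each list, 54.1% of members were named (48.9% of all genes). With region centres within 1 kb or 5 kb in place of the promoter-TSS class, the promoter share of common regions was 96.2% under both. With any overlap of the 1 kb around a start site, whichever gene a region was named for, members with a common region were 44.6%. For 10 members that start site came from the deposited distances. Of the 57 with a promoter sequence the share was 52.6%, against 23.2% of all such genes. Over its 13 settings the BIBR1532 share ranged from 45.2%, in the 103 other DNA repair genes, to 63.6%. The lowest share of the members themselves was 45.5%, within 10 kb of a start site (49.3% of all). One of the settings, without regions that touch a common region (51.9%), was chosen after seeing the data. No paired analysis was possible because the lists are pools with no value per sample, and for the same reason no replicate could be left out.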

Other observations

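Other sequence motifs were counted in the same 300-base RefSeq promoters, on both strands. The NRF1 core GCATGCGC, bound by a factor of nuclear genes for mitochondrial function, occurred in 10 of 57 members (17.5%, exact 95% interval 8.75 to 29.9%), against 3.94% of all 17492 promoters. These were Atm, Ercc6, Fanci, Fancm, Lig1, Lig4, Mlh3, Parp2, Parp6 and Xrcc5. The E2F sequence TTTCCCGC, bound by cell-cycle factors, occurred in 6 (10.5%, 3.96 to 21.5%, against 1.61%): Brca2, Fancg, Msh5, Msh6, Rad51c and Xrcc6. A second E2F sequence, TTTGGCGC, occurred in 1 member (against 0.726% of all promoters). The CCAAT box was in 32 (56.1%, against 42.3%) and the ETS sequence CCGGAAGT in 4 (7.02%, against 5.69%). Among all these motifs in the members, 1 E2F match overlapped 1 GC box match. In the 85 other DNA repair genes with a promoter sequence, the NRF1 core was in 8.24% and TTTCCCGC in 3.53%. TTTGGCGC was in 1.18% of those 85, the CCAAT box in 50.6% and the ETS sequence in 15.3%. The members' promoters are richer in CpG than all promoters, and the part of CpG content in these motif counts was not tested.

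The 103 other DNA repair genes, taken from a list that shares no gene with the families above, had 47 regions in the BIBR1532 list and 57 in the vehicle list, so that the share of the first was 45.2% (35.4 to 55.3%). Of their condition-specific regions within 1 kb of a start site, 11 of 42 touched or overlapped a common region (26.2%, 13.9 to 42.0%), against 12.9% of all such regions. A head-to-head neighbour was present at 27 of the 85 with a promoter sequence (31.8%), and 73 of the 85 (85.9%) reached a CpG ratio of 0.6.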
